A study of Mus musculus with 10 samples.

Results

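Leukemic lymph node cells of Ebf1+/- Pax5+/- mice were set against 2 kinds of pro-B cell at once, and a gene was counted only where the answer was the same whichever kind was used. All 6 leukemia arrays had to lie above all 4 pro-B arrays, or all 6 below them. Of 14456 genes measured, 2568 (17.8%) lay above in this sense and 2174 (15.0%) below, while the arrays of the sides overlapped for 9714. Of 49 MYC targets and ribosome biogenesis genes, 47 lay above, as did 25 of 31 genes of serine, purine and pyrimidine synthesis. Below lay 13 of 37 lymphoid transcription factors, and 12 of 30 genes of quiescence and growth restraint.

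Every one of the 10 arrays of the study entered the comparison, each a one-colour oligonucleotide array of total RNA. The leukemias (dHet-B-ALL) came from 3 mice, numbered 686, 713 and 760, with 2 arrays a mouse. These mice lacked 1 functional copy each of Ebf1 and of Pax5, and the labels give no sort, culture or age for the leukemic cells. The dHet-proB group, 2 arrays, carried the same heterozygous Ebf1 and Pax5 alleles together with Rag2-/-, and came from c-Kit+ fetal liver cells cultured on OP9 stromal feeders with Flt3 ligand, SCF (the Kit ligand) and IL-7. The wt-proB group, 2 arrays, was Fraction BC of bone marrow, sorted from Ebf1+/+ Pax5+/+ control mice. Leukemia therefore differed from the dHet pro-B cells in Rag2 genotype and in tissue of origin, fetal liver, as well as disease. From the wt pro-B cells it differed in Ebf1 and Pax5 genotype and in site. The dHet cells were also cultured and the wt cells sorted, steps the labels do not give for the leukemic cells. None of these can be told apart from leukemia in either comparison alone. Nothing in the labels says whether the 2 arrays of a group came from separate animals, cultures or extracts. The p-values therefore mix the spread between the 3 leukemic mice with that within each pro-B pair, and the latter may be technical.

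Pro-B cells are committed B cell precursors that rearrange the immunoglobulin heavy chain locus with the RAG1 and RAG2 recombinase and depend on IL-7. EBF1 and PAX5 switch on the B cell programme, and IKZF1 works with them to end proliferation once a pre-B cell receptor is made. MYC drives ribosome biogenesis, nucleotide synthesis and glycolysis.

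Levels are log2 values of the processed spot signal minus the 75th percentile of the array, so 0 is that percentile, and they are compared only within a gene. The gap of a gene is the distance between the nearest leukemia and pro-B arrays. Its change is the mean of the 3 leukemias minus the mean of the dHet and wt pro-B means, with a standard error (SE) from limma over 7 samples (3 mouse means, 2 dHet and 2 wt arrays). With p-values adjusted over all genes at 0.05, limma called 4123 genes higher (28.5%) and 4190 lower (29.0%) in the leukemias. Of the genes above, 2535 were among those called higher, and of the genes below, 2145 were among those called lower. Both counts rest on the same arrays, so neither supports the other. A further 1588 genes called higher and 2045 called lower had at least 1 array out of order.

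All 3 replicate 1 leukemia arrays were on 1 slide and scanned on 1 day. The other 3 leukemia arrays, on a second slide, and the 4 pro-B arrays, on another slide, were scanned on another day, so slide and side cannot be told apart. Between 42.1% and 52.4% of probes were well above background on 9 arrays, and 35.7% on leukemia 686 replicate 1. With the 3 leukemia arrays of the second scan day alone, 3109 genes lay above and 3502 below. By construction these hold every gene of the full comparison and more, since fewer arrays make the condition easier to meet. The B cell label of the leukemias was met by Cd79a, well above background on all 6 leukemia arrays.

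Most gaps were small. The median gap was 0.42 among the genes above and 0.38 among those below. A gap of at least 1, a doubling between the nearest arrays, was reached by 480 genes above and 307 below, and one of at least 3 by 24 and 11 genes. The median change was 1.24 for the genes above and -1.41 for those below, against -0.02 for all genes. Against each reference alone, the genes above had a median change of 1.08 relative to dHet and 1.33 relative to wt pro-B. For the genes below it was -1.27 relative to dHet and -1.42 relative to wt pro-B. The dHet arrays were the nearer pro-B arrays for 1665 of the 2568 genes above and for 1142 of the 2174 below. On the leukemia side, 713 replicate 2 was the array nearest to the pro-B cells for 1251 genes above and 622 below, more than any other array in both directions.

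**Figure D1:**
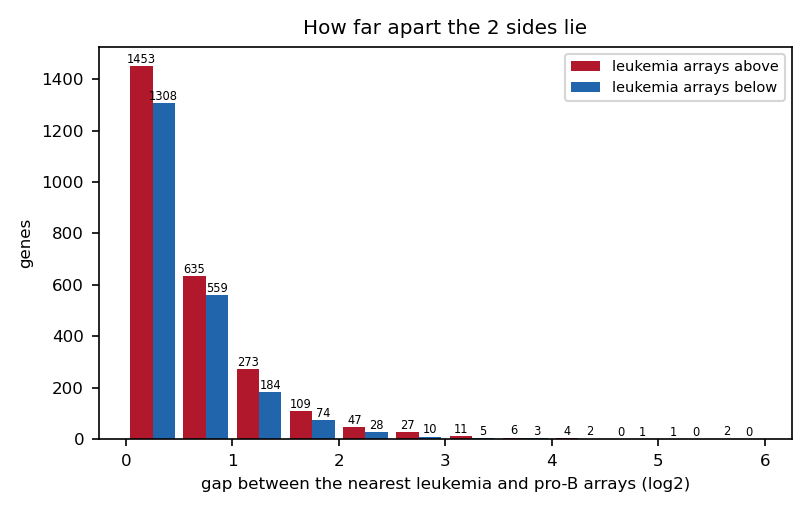
Number of genes (vertical axis) by the gap between the nearest leukemia and pro-B arrays in bins of 0.5 on the log2 scale (horizontal axis), red for genes with all leukemia arrays above and blue for those with all below. The first bin holds 1453 genes above and 1308 below, and few genes have gaps beyond 3.

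**Figure D2:**
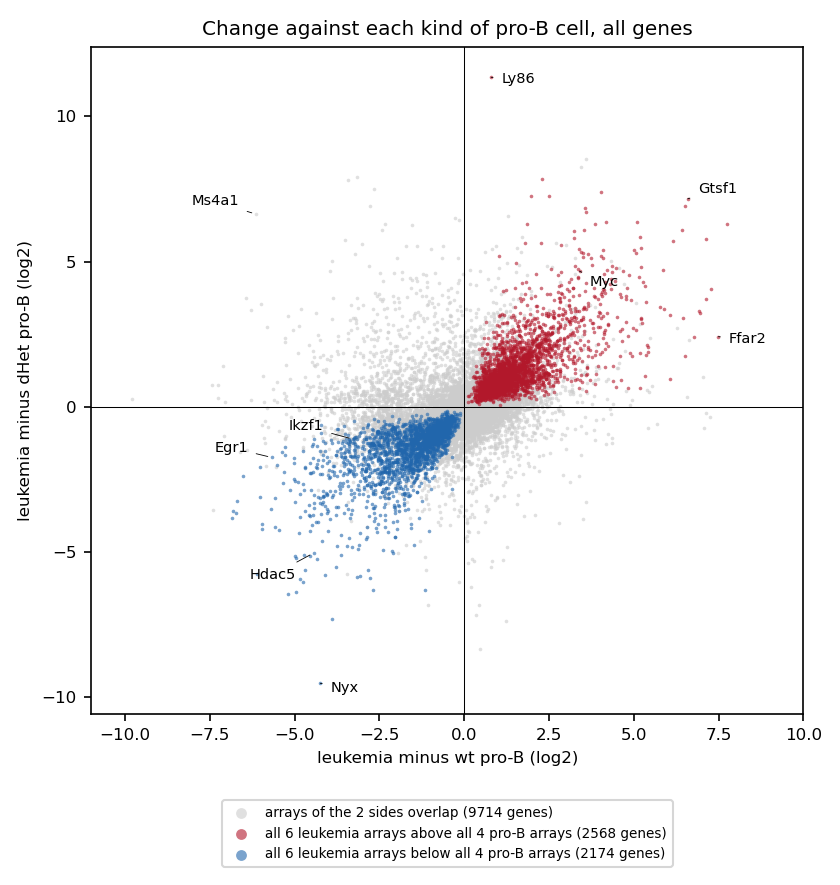
Change of each gene against dHet pro-B (vertical axis, log2) and against wt pro-B (horizontal axis, log2), coloured by the order of the arrays. Both axes share the 6 leukemia arrays, so points are not independent in the 2 directions. Coloured genes lie in the upper right and lower left, with Ly86, Ffar2, Nyx and Egr1 far from the diagonal.

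Where several probes of a gene were kept, they did not always follow the same order. Of 1072 such genes above, all probes met the order in 449, and 62 had another probe in the opposite order. Of 771 such genes below, 348 met it with all probes and 9 had a probe in the opposite order.

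Most of the 12 widest gaps above belonged to genes that were not well above background in either pro-B kind. Such genes passed the filter on dim probes only through the leukemias and were picked by gap, so their p-values give no support. Sult6b1, a sulfotransferase family gene on chromosome 17 (probe at 79284243 to 79284302, mm9), had levels of 0.57, 0.79 and 0.97 (lowest, median and highest) on the leukemia arrays. Its levels were -6.07 and -6.20 on the dHet and -6.13 and -5.30 on the wt arrays. No pro-B array was well above background, so the leukemias were at least 29.1-fold higher at the scaling used (adjusted p = 0.000199). This bound is set against the dimmest level well above background. Over the 6 scalings tried, the change of Sult6b1 ran from 2.55 to 7.10. This bound and those that follow hold only for the scaling used. Gtsf1, a factor of the germline piRNA pathway on chromosome 15 (103232937 to 103235246), read 0.13, 1.02 and 1.38 in the leukemias. Neither the dHet (-6.30 and -6.36) nor the wt arrays (-5.79 and -5.73) were well above background for it, which gives at least 30.1-fold (adjusted p = 0.000232), and its second probe met the same order. Crisp1, a cysteine-rich secretory protein of the epididymis, was at 0.83, 1.59 and 2.66 in the leukemias. It was not well above background in any pro-B array, which gives at least 52.3-fold (adjusted p = 0.000234). Over the scalings, the change ran from 2.77 to 7.26 for Gtsf1 and from 3.15 to 7.40 for Crisp1.

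The same held for 5 more of the 12 widest. Rnase10, a secreted ribonuclease family member, was at least 20.8-fold higher, Il18rap, the accessory chain of the IL-18 receptor, at least 13.8-fold, Dleu7 at least 12.1-fold and Gm6583 at least 10.2-fold. Denn2b was at least 7.18-fold higher by the same bound. Over the scalings, the lowest changes were 2.29 for Rnase10, 1.63 for Il18rap, 1.77 for Dleu7, 1.38 for Gm6583 and 1.2 for Denn2b. Rnase10 ran among the leukemias from -1.21 to 2.26, with the 2 arrays of mouse 760 highest.

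Genes with signal on both sides also stood wide apart. Evpl, which encodes the cell junction protein envoplakin, read 3.46, 3.92 and 4.84 in the leukemias, against -0.07 and -0.37 in dHet and -1.16 and -1.22 in wt pro-B cells. The gap of 3.52 is 11.5-fold between the nearest arrays, and the change was 4.80 ± 0.31 (SE; adjusted p = 0.000306). Amz1, a metallopeptidase gene, was at 2.37, 2.68 and 3.21 in the leukemias, against -1.40 and -2.72 in dHet and -1.77 and -1.78 in wt cells (change 4.62 ± 0.34). Gria2, an AMPA glutamate receptor subunit, had a gap of 3.97 and was well above background on no dHet array but on both wt arrays. Its change was 5.72 ± 0.27. For Dipk1b, with a gap of 4.01 and a change of 6.46 ± 0.53, 3 of the 4 pro-B arrays were well above background.

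**Figure D3:**
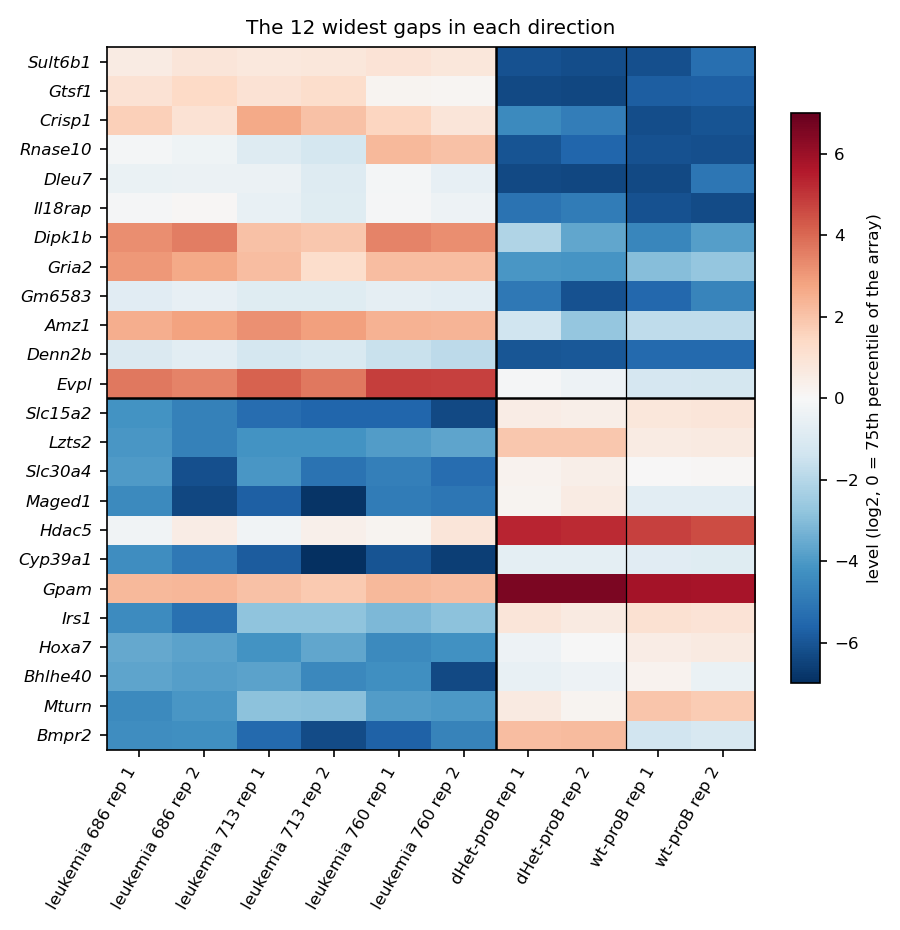
Levels (colour, log2 with 0 at the 75th percentile of the array) of the 12 genes with the widest gaps above (upper block) and below (lower block) on each array, leukemias left and pro-B cells right of the thick line. In the upper block the leukemia columns are all redder than the pro-B columns, in the lower block all bluer. Dark blue cells near -6 are mostly spots not well above background.

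On the lower side, 4 of the 12 widest gaps belonged to genes that were not well above background on any leukemia array. These passed the filter on dim probes only through the pro-B cells and were picked by gap, so their p-values give no support. Slc15a2, a peptide transporter, had levels of -6.31, -5.44 and -4.20 on the leukemia arrays, none of them well above background. It read 0.51 and 0.42 in dHet and 0.79 and 0.85 in wt pro-B cells. The leukemias were at least 22.5-fold lower at the scaling used (adjusted p = 0.000271). Slc30a4, a zinc transporter, was at least 16.4-fold lower, Maged1 of the melanoma antigen family at least 12.8-fold and Cyp39a1, an oxysterol hydroxylase, at least 8.64-fold. Each had no leukemia array well above background and all 4 pro-B arrays well above it. Over the scalings, the weakest changes were -2.31 for Slc15a2, -1.74 for Slc30a4, -1.83 for Maged1 and -1.57 for Cyp39a1.

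Hdac5, a class IIa histone deacetylase on chromosome 11 (102057068 to 102057122), was bright on every array. It read -0.25, 0.28 and 0.84 in the leukemias, against 5.34 and 5.22 in dHet and 4.79 and 4.57 in wt pro-B cells. The sides were 3.73 apart, 13.3-fold, and the change was -4.74 ± 0.15 (adjusted p = 0.000199). Gpam, the mitochondrial acyltransferase that starts glycerolipid synthesis, read 1.85, 2.21 and 2.30 in the leukemias, against 6.59 and 6.57 in dHet and 5.80 and 5.78 in wt cells, with a change of -4.03 ± 0.12. Both of its probes met the order.

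The other wide gaps below had leukemia arrays partly under background. Irs1, the insulin receptor substrate, passed background on 4 of the 6 leukemia arrays and changed by -4.42 ± 0.51. Lzts2 (2 of 6 arrays) changed by -5.38 ± 0.17, Mturn (4 of 6) by -4.85 ± 0.35 and Bmpr2, a BMP receptor (1 of 6), by -5.60 ± 0.36. With undetected arrays set to the dimmest level well above background, the changes were -3.96 for Irs1, -4.91 for Lzts2, -4.43 for Mturn and -4.26 for Bmpr2. Values of genes under background depend on the scaling, and over the 6 scalings tried they ran from -5.64 to -3.01 for Lzts2, from -5.10 to -2.82 for Mturn and from -5.85 to -2.38 for Bmpr2. Hoxa7, a homeobox gene of progenitors and some leukemias, passed background on 2 of the 6 leukemia arrays, with levels of -4.45, -3.97 and -3.59. It read -0.37 and -0.03 in dHet and 0.53 and 0.63 in wt pro-B cells. Its change was -4.16 ± 0.20, or -3.69 with undetected arrays at that dimmest level, and ran from -4.42 to -1.54 over the scalings.

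MYC itself and the growth programme it is known for gave the highest share above of the lists examined. Myc (probe on chromosome 15, 61821516 to 61821576) had levels of 3.68, 4.79 and 5.32 on the leukemia arrays, against -0.23 and 0.26 on the dHet and 1.22 and 1.33 on the wt pro-B arrays. The lowest leukemia array was 5.10-fold above the highest pro-B array, the change was 4.03 ± 0.29 (adjusted p = 0.000376), and all 3 probes met the order. Among 49 measured MYC targets and ribosome biogenesis genes, 47 (95.9%) lay above all pro-B arrays, 1 lay below and 1 overlapped. Limma called 48 higher and 1 lower, and the median change was 1.94. The largest gaps were those of Srm, Gnl3 and Dkc1.

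Srm, spermidine synthase, read 4.27, 5.01 and 5.47 in the leukemias, against 0.26 and 0.19 in dHet and 1.57 and 1.65 in wt pro-B cells (gap 2.62, change 4.05 ± 0.19). Gnl3, which encodes nucleostemin of the nucleolus, read 2.89, 3.53 and 3.87 in the leukemias, against -0.37 and -0.30 in dHet and 0.32 and 0.22 in wt cells (gap 2.57, change 3.52 ± 0.16). Dkc1, the pseudouridine synthase dyskerin, changed by 3.14 ± 0.17. The 2 exceptions were Npm1, the nucleolar protein nucleophosmin, and Tfam, a mitochondrial transcription factor. Npm1 read 7.01, 7.50 and 7.99 in the leukemias, against 7.32 and 7.16 in dHet and 5.68 and 5.64 in wt cells, so it overlapped the dHet arrays alone. The brightest Tfam probe lay below, but of its other 2 probes 1 lay above and 1 overlapped, so its direction depends on the probe.

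No other member of the MYC network lay above. Of 13 measured, 1 (Myc) lay above (7.69%) and 3 below (23.1%), beside the 17.8% and 15.0% of all genes. Those below were Mxd1, Mnt and Mxi1, repressor partners of MAX. Over the 6 scalings tried, 1 to 2 members lay above and 0 to 6 below. Mxd1 read -0.81, -0.16 and 0.21 in the leukemias, against 1.86 and 1.94 in dHet and 0.97 and 1.04 in wt cells (change -1.68 ± 0.21). The gaps of Mnt and Mxi1 were only 0.18 and 0.06. The call of Mnt was lost without dHet-proB replicate 1 or wt-proB replicate 1, and that of Mxi1 without replicate 2 of leukemia 686 or 760, and both calls were lost with slide as a random block. All 3 overlapped when arrays were scaled by their median.

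**Figure D4:**
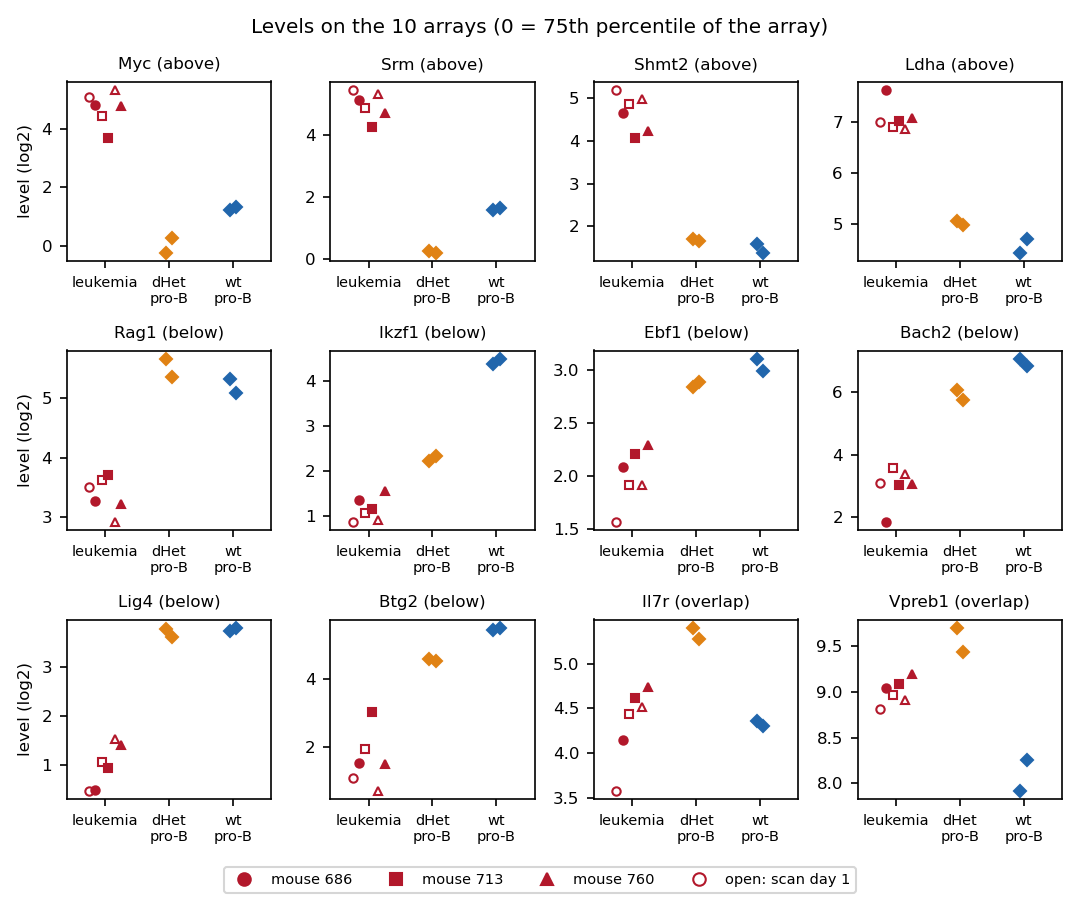
Levels (vertical axis, log2) of 12 genes on the 10 arrays, leukemias left (symbol by mouse, open for the first scan day), then dHet and wt pro-B cells. Myc, Srm, Shmt2 and Ldha lie above, Rag1, Ikzf1, Ebf1, Bach2, Lig4 and Btg2 below, and Il7r and Vpreb1 fall between the 2 pro-B kinds or overlap them.

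Synthesis of nucleotides and of one-carbon units followed. Of 31 serine, purine and pyrimidine synthesis genes, 25 (80.6%) lay above and none below, limma called 27 higher and 1 lower, and the median change was 1.48. Cad, the enzyme of the first steps of pyrimidine synthesis, read 3.36, 4.27 and 4.94 in the leukemias, against 0.98 and 1.1 in dHet and 1.64 and 1.57 in wt pro-B cells (gap 1.71, change 2.93 ± 0.21). Of its other 3 probes, 2 met the order and 1 overlapped. Ppat, which commits purine synthesis, changed by 2.48 ± 0.22 with a gap of 1.70. Dctd, deoxycytidylate deaminase, was not well above background on any pro-B array and at least 8.19-fold higher in the leukemias at the scaling used. Its change ran from 1.03 to 3.72 over the scalings tried.

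Among 24 folate and one-carbon genes, 13 (54.2%) lay above and 1 below, and limma called 14 higher and 2 lower. Shmt2, the mitochondrial enzyme that feeds serine carbon into folate, read 4.06, 4.75 and 5.20 in the leukemias, against 1.71 and 1.65 in dHet and 1.59 and 1.38 in wt cells. Its gap was 2.35 and its change 3.09 ± 0.15 (adjusted p = 0.000246). Slc19a1, the reduced folate carrier, changed by 3.33 ± 0.13 and Mthfd1, a trifunctional folate enzyme, by 2.98 ± 0.22, although a second probe of Slc19a1 overlapped. The single member below was Slc46a1, the proton-coupled folate transporter, which read -4.73, -3.91 and -3.49 in the leukemias, with 3 of 6 arrays well above background, against -2.43 and -2.32 in dHet and -2.08 and -1.89 in wt cells.

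Of 22 glycolysis genes, 11 (50.0%) lay above and 1 below, with 15 called higher and 2 lower. Hk2, hexokinase 2, read 0.21, 0.75 and 0.85 in the leukemias, against -2.67 and -2.51 in dHet and -2.68 and -2.0 in wt pro-B cells (change 3.10 ± 0.19). Ldha, lactate dehydrogenase A, read 6.85, 7.01 and 7.63 in the leukemias, against 5.07 and 4.99 in dHet and 4.45 and 4.71 in wt cells (gap 1.78, change 2.28 ± 0.14). Pgam1, phosphoglycerate mutase, changed by 2.16 ± 0.13. The member below, Pdk2, is a mitochondrial kinase that inhibits pyruvate dehydrogenase. It passed background on 3 of the 6 leukemia arrays and changed by -3.09 ± 0.42, or -2.45 with undetected arrays at the dimmest level well above background (-3.35 to -1.11 over the scalings). Of the genes of oxidative phosphorylation and mitochondrial translation, 17 of 32 genes (53.1%) lay above and none below, with changes such as 2.18 ± 0.12 for the mitochondrial ribosome gene Mrpl12 and 1.55 ± 0.11 for Cyc1, cytochrome c1.

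The promoter of Ldha from RefSeq (GRCm38.p6, chr7:46845554-46845803, plus strand, the 250 bases before 1 of its start sites) holds 2 copies of the MYC-type E-box CACGTG. That of Aen, a TRP53-induced nuclease gene also above (chr7:78895808-78896057, plus strand), holds 1. They are shown as examples of genes above with this motif, whose letters are in capitals. A second start site of each gene had no match in its 250 bases.
Ldha: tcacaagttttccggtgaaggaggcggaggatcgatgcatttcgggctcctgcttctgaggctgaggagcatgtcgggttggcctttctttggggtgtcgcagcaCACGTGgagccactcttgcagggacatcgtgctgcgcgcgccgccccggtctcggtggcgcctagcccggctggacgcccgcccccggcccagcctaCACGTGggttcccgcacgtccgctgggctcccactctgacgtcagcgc
Aen: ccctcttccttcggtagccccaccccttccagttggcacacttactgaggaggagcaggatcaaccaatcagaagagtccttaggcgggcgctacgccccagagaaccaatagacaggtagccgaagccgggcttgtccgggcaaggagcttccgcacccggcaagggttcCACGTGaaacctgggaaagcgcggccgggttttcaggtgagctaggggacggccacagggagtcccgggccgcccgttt
Of 2399 promoter windows of genes above (250 bases before to 50 after a start site, 1973 genes), 12.2% held CACGTG on either strand. The share was 8.40% of 1655 windows for genes below and 9.77% of 12411 for all measured genes. The motif reads the same on both strands, a match is no evidence of binding, and the 250 bases before the start sites of Shmt2 and Hk2 held none.

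For cell cycle and DNA replication, many genes were called but fewer were in order. Of 47 genes, 18 (38.3%) lay above and 1 below, although limma called 36 higher and 1 lower. Its median change was 0.51 relative to dHet and 1.31 relative to wt pro-B cells. Ccnd1, cyclin D1, read 1.53, 2.57 and 2.73 in the leukemias, against -4.27 and -4.76 in dHet, where it was not well above background, and -1.27 and -1.20 in wt cells (gap 2.73). Ccnd2, cyclin D2, read 4.16, 4.91 and 6.63 in the leukemias, against 2.14 and 2.29 in dHet and 3.17 and 3.15 in wt cells (change 2.45 ± 0.45). Mcm2, a subunit of the replicative helicase, had a gap of 0.95 and a change of 1.31 ± 0.12. Ccnb1, cyclin B1, was called higher but overlapped the dHet arrays, with 1.71, 2.40 and 3.28 in the leukemias, against 2.03 and 2.08 in dHet and -0.22 and 0.30 in wt cells. The member below was E2f2, a transcription factor of the cycle, with a change of -2.04 ± 0.29.

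In cholesterol and fatty acid synthesis, 1 of 25 genes lay above (Fasn, fatty acid synthase, change 1.92 ± 0.25) and 1 below (Insig1, which restrains sterol synthesis, change -2.95 ± 0.42), shares of 4.00% each, under the 17.8% and 15.0% of all genes. The median change was -0.27 relative to dHet and 0.99 relative to wt pro-B cells. Sqle, squalene epoxidase, read 1.74, 2.61 and 3.67 in the leukemias, against 2.26 and 2.26 in dHet and -0.38 and -1.11 in wt cells, and so lay above the wt arrays alone.

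The B cell factors whose genes were heterozygous lay below. Ebf1 (chromosome 11, 44818365 to 44818424) read 1.56, 2.0 and 2.30 in the leukemias, against 2.84 and 2.89 in dHet and 3.11 and 2.99 in wt pro-B cells. The change was -0.96 ± 0.12 (adjusted p = 0.00136). Both probes met the order, the second by a gap of only 0.0092, with its pro-B arrays spread from -0.49 to 3.19. Pax5 read -6.57, -4.44 and -2.54 in the leukemias, with 2 of 6 arrays well above background, against -1.40 and -1.67 in dHet and -0.30 and -0.67 in wt cells. Its change was -3.53 ± 0.66, or -2.44 with undetected arrays at the dimmest level well above background (-3.78 to -0.81 over the scalings), and the call was lost with slide as a random block (adjusted p = 0.0517). In bulk samples such as these, fewer cells of a type and less RNA per cell cannot be told apart.

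Ikzf1, a zinc finger factor often deleted in B-ALL, had 1 probe (chromosome 11, 11658319 to 11661278). It read 0.88, 1.12 and 1.55 in the leukemias, against 2.22 and 2.33 in dHet and 4.37 and 4.49 in wt pro-B cells. The gap was 0.67 and the change -2.20 ± 0.10 (adjusted p = 0.000234), larger relative to wt (-3.28) than to dHet (-1.12). Bach2, a repressor that guards against early pre-B cell transformation, read 1.84, 3.07 and 3.57 in the leukemias, against 6.06 and 5.74 in dHet and 7.07 and 6.85 in wt cells (gap 2.17, change -3.44 ± 0.24). Sox4 changed by -1.73 ± 0.10 and Irf4 by -2.68 ± 0.28, both below all pro-B arrays. Of 37 lymphoid and B-ALL transcription factors, 13 (35.1%) lay below and 2 above, and limma called 19 lower and 3 higher. The 2 above were Bcl11a, with a change of 1.25 ± 0.17 and 1 of 3 probes overlapping, and Tal1, a stem and T cell leukemia factor in which all 6 leukemia arrays were well above background, with a change of 3.06 ± 0.27.

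Among 33 B cell genes that EBF1 and PAX5 activate, 13 (39.4%) lay below and 1 above, with 16 called lower and 3 higher. Cd72, a B cell surface receptor, read -0.54, -0.24 and 1.81 in the leukemias, against 3.48 and 3.53 in dHet and 5.97 and 5.87 in wt pro-B cells (change -4.36 ± 0.55). Cd79a, a chain of the B cell receptor complex, overlapped (change 0.13 ± 0.22). The member above was Nedd9, whose second probe overlapped. Of 13 genes that PAX5 represses, 4 (30.8%) lay above and 2 (15.4%) below, beside the 17.8% and 15.0% of all genes. Limma called 8 of them higher and 3 lower, beside 28.5% and 29.0% of all genes. Emb, the adhesion protein embigin, read 4.00, 4.40 and 4.70 in the leukemias, against 1.44 and 1.61 in dHet and 0.13 and 0.15 in wt cells (change 3.55 ± 0.15). The 2 below, Sdc1 and Prdm1, are plasma cell genes. Prdm1 was well above background on no leukemia array, and it overlapped after normexp and in the authors' deposited table. Plasma cell markers as a list went both ways. Of 10 measured, 2 lay above and 3 below, and limma called 5 higher and 4 lower. Over the 6 scalings tried, 0 to 4 of these markers lay above and 2 to 3 below.

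The RefSeq promoter of Ikzf1 (chr11:11685675-11685924, plus strand) and that of Hoxa7 (chr6:52218574-52218823, minus strand) each hold 1 match to the EBF1 core CCCNNGGG, given in capitals. They are shown as examples of genes below with this motif, which reads the same on both strands.
Ikzf1: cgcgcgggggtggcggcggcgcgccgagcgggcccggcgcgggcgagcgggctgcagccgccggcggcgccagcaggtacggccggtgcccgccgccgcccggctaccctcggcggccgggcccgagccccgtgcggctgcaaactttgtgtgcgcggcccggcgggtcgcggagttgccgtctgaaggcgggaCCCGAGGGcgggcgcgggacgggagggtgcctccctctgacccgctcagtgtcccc
Hoxa7: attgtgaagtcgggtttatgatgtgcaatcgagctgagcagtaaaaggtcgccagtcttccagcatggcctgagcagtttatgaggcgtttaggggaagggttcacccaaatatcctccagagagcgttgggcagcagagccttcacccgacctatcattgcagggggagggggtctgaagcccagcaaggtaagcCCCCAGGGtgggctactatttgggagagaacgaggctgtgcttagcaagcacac
The motif stood in 19.6% of the windows of genes below, 16.5% of those above and 17.9% of all. A second promoter window of Ikzf1 had no match. The STAT motif TTCNNNGAA stood in 7.37% of windows below, 7.21% above and 7.01% of all.

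Rag1, Rag2, Lig4 and Dclre1c of the recombination genes lay below, while the surrogate light chain genes Vpreb1, Vpreb2 and Igll1 overlapped. Of 25 genes of the surrogate light chain, pre-B cell receptor signalling and V(D)J recombination, 9 (36.0%) lay below and 2 above, and limma called 9 lower and 3 higher. Rag1, a recombinase subunit, read 2.92, 3.39 and 3.71 in the leukemias, against 5.66 and 5.35 in dHet and 5.33 and 5.08 in wt pro-B cells. The gap was 1.37, all 3 probes met the order and the change was -1.98 ± 0.18 (adjusted p = 0.000634). Lig4, the ligase that joins broken ends, read 0.47, 1.00 and 1.54 in the leukemias, against 3.78 and 3.62 in dHet and 3.74 and 3.81 in wt cells (gap 2.09, change -2.75 ± 0.24).

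Rag2 read -3.14, -2.73 and -2.56 in the leukemias, against -0.98 and -1.0 in dHet and -1.60 and -1.69 in wt cells (change -1.46 ± 0.13). The dHet cells were labelled Rag2-/- and still gave the highest signal. Where the probe lies relative to the deletion was not established, so it checks nothing about the genotype. Bcl6, a repressor of the pre-B stage, changed by -2.33 ± 0.12 and Ighm, the mu heavy chain, by -2.59 ± 0.25, with the caution that immunoglobulin probes share sequence between family members. Xrcc5, a subunit of the end-joining factor Ku, lay above with a change of 2.35 ± 0.36, and Poll, an end-joining polymerase, was called higher but overlapped. Vpreb1, of the surrogate light chain, read 8.81, 9.0 and 9.19 in the leukemias, against 9.70 and 9.43 in dHet and 7.92 and 8.26 in wt cells, between the kinds. Igll1 and Dntt also overlapped, with changes of 0.57 ± 0.20 (adjusted p = 0.0519) and -0.63 ± 0.87 (adjusted p = 0.564).

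Of 17 genes of early B cell cytokine receptors and JAK-STAT signalling, 2 lay above and 2 below, 11.8% each way beside the 17.8% and 15.0% of all genes. Il2rg, the shared gamma chain of the IL-7 and other receptors, changed by 1.22 ± 0.13. Il7r overlapped, with 3.58, 4.47 and 4.75 in the leukemias, against 5.41 and 5.28 in dHet and 4.36 and 4.30 in wt pro-B cells (change -0.50 ± 0.21, adjusted p = 0.0871). Kit also overlapped and lay between the kinds, -0.92, 0.72 and 1.27 in the leukemias, against 3.38 and 3.24 in dHet and -1.47 and -1.61 in wt cells. Flt3 was called higher (2.17 ± 0.68) but overlapped the dHet arrays, and the call was lost without leukemia 760 replicate 2, without both arrays of mouse 686 or of mouse 713, without any 1 of the 4 pro-B arrays, and with slide as a random block.

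Of 20 SOCS family and STAT5 target genes, 4 lay above and 5 below, near the 17.8% and 15.0% of all genes. Cish, induced by STAT5, read 2.72, 3.43 and 4.09 in the leukemias, against 2.29 and 2.44 in dHet and 0.07 and -0.06 in wt pro-B cells. The gap was 0.28 and the change 2.28 ± 0.21, lost as a call when the pro-B cells were fitted as 1 group of 4 arrays and as an order when arrays were scaled by their median. Bcl2l1, which encodes BCL-XL, read -0.95, -0.53 and 0.43 in the leukemias, against 1.89 and 1.85 in dHet and 2.04 and 2.07 in wt cells (change -2.33 ± 0.28), and all 3 probes met the order. In the BCL2 family as a whole, 3 of 14 (21.4%) lay above and 4 (28.6%) below, beside the 17.8% and 15.0% of all genes. Bok, a pro-apoptotic member, had the widest gap at 3.0, with 3.48, 4.34 and 4.95 in the leukemias, against -0.30 and 0.48 in dHet and -0.23 and 0.30 in wt cells. Bmf, also pro-apoptotic, lay below with a change of -2.77 ± 0.56.

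Of 22 TRP53 genes, 7 (31.8%) lay below and 3 above. Plk2, a stress-induced kinase, passed background on 1 of the 6 leukemia arrays and changed by -3.72 ± 0.22, or -3.04 with undetected arrays at the dimmest level well above background (-3.97 to -1.18 over the scalings). Gadd45a, a growth arrest gene, read -1.79, -1.12 and -0.96 in the leukemias, against 0.97 and 0.77 in dHet and 1.37 and 1.29 in wt pro-B cells (change -2.40 ± 0.20). Trp53 itself lay above by its brightest probe (change 1.38 ± 0.14), but its second probe overlapped with a change of -0.70, so its direction depends on the probe. Aen changed by 1.60 ± 0.11, although a second probe overlapped.

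None of the 30 measured genes in the quiescence and growth restraint list lay above the pro-B arrays. Of these, 12 (40.0%) lay below, 17 were called lower and 1 higher, and the median change was -1.11. Over the 6 scalings tried, 0 to 1 member lay above and 8 to 14 below. Tob1, an antiproliferative gene, passed background on 3 of the 6 leukemia arrays and changed by -3.47 ± 0.14, or -2.81 with undetected arrays at the dimmest level well above background (-3.72 to -1.42 over the scalings). Klf4, a transcription factor that halts pre-B cell division, read 0.42, 1.28 and 1.67 in the leukemias, against 3.20 and 3.14 in dHet and 4.80 and 4.54 in wt pro-B cells (change -2.80 ± 0.26). Btg2, another antiproliferative gene, read 0.72, 1.52 and 3.04 in the leukemias, against 4.57 and 4.51 in dHet and 5.43 and 5.49 in wt cells (change -3.36 ± 0.35).

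Immediate early and handling stress genes, 31 measured, also gave none above, with 11 (35.5%) below, 25 called lower and 1 higher. Their median change was -0.46 relative to dHet and -3.02 relative to wt pro-B cells. The summed level of the list, the log2 of its members' summed signal, was 7.64 to 8.09 on the leukemia arrays, 8.42 to 8.45 on the dHet and 10.12 to 10.16 on the wt arrays. Such genes respond to cell sorting and dissociation, and their part in the other results was not tested. Egr1, a zinc finger factor induced rapidly by stimulation, read -3.55, -3.33 and -2.05 in the leukemias (4 of 6 arrays well above background), against -1.23 and -1.18 in dHet and 2.73 and 2.71 in wt cells. Fos was not well above background on any leukemia or dHet array and read 1.90 and 2.28 in wt cells.

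Some genes met the order while the pro-B kinds lay far apart. Ly86, an accessory protein of lymphocyte receptors, read 5.22, 5.38 and 6.31 in the leukemias, against -5.12 and -6.31 in dHet, not well above background, and 4.90 and 4.77 in wt pro-B cells. Its change relative to wt was 0.79. Ffar2, a short-chain fatty acid receptor, lay nearer to dHet, with 3.26, 4.34 and 4.91 in the leukemias, against 1.80 and 1.75 in dHet and -3.09 and -3.53 in wt cells. On the lower side, Nyx was not well above background on any leukemia array and read 3.62 and 3.24 in dHet, against -1.94 and -1.75 in wt cells. Of the 10 genes in order whose pro-B kinds differed most, the calls of Ly86, Sema3g, Cd8b1, Tnfsf11, Kynu, Egr1 and Rasgef1b were lost when the pro-B cells were fitted as 1 group.

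Other genes lay between the references. For 281 genes all 6 leukemia arrays were above both wt and below both dHet arrays, and for 201 the reverse. Ms4a1, which encodes CD20, read -0.69, -0.30 and 1.74 in the leukemias, against -6.36 and -6.42 in dHet and 6.37 and 6.41 in wt pro-B cells. It was not well above background on the dHet arrays, and its change relative to wt was -6.15. Cd83, Btla, Spns3 and Fcmr, surface or transport proteins of more mature B cells, lay in the same position. In the opposite position, Septin8 read -0.74, -0.20 and 0.51 in the leukemias, against 2.57 and 2.35 in dHet and -3.29 and -3.22 in wt cells, and Uaca read 0.29, 0.73 and 0.97, against 2.65 and 2.77 in dHet and -0.99 and -0.79 in wt cells.

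Some markers of other cells lay above all pro-B arrays. Of 15 T cell markers, 7 (46.7%) lay above and 1 (6.67%) below, beside the 17.8% and 15.0% of all genes. Limma called 8 higher and 1 lower, beside 28.5% and 29.0% of all genes. The summed level was 4.41 to 6.62 on the leukemia arrays, 4.33 to 4.60 on the dHet and 3.83 to 4.02 on the wt arrays. Cd3d, a chain of the T cell receptor complex, read -0.94, 0.36 and 1.34 in the leukemias, against -3.84 and -4.64 in dHet and -4.17 and -3.74 in wt pro-B cells (change 4.51 ± 0.40). Of 7 NK and cytotoxic markers, 2 (28.6%) lay above, Ccl5 and Nkg7. The call of Nkg7 was lost with slide as a random block and without either dHet or the first wt array. The NK and cytotoxic list had a summed level of 4.49 to 5.53 on leukemia, 4.14 to 4.30 on dHet and 1.61 to 1.95 on wt arrays. Of 8 erythroid markers, 1 (12.5%) lay above, and the summed level was 5.22 to 8.67 on leukemia, 3.35 to 3.47 on dHet and 3.66 to 3.91 on wt arrays.

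Myeloid markers gave 1 above and 1 below of 21, 4.76% each way beside the 17.8% and 15.0% of all genes. Their summed levels were 4.04 to 7.24 on leukemia, 6.44 to 6.55 on dHet and 6.42 to 7.35 on wt arrays. Stromal and feeder cell markers (2 above of 9, 22.2%) summed to 6.23 to 7.07 on leukemia, 6.41 to 6.42 on dHet and 5.82 to 5.94 on wt arrays. Thy1, which lay above, is counted in both the T cell and the stromal list. Of 6 endothelial and lymph node stroma markers, 1 (16.7%) lay above and 2 (33.3%) below. They summed to 4.17 to 6.74 on leukemia, 4.23 to 4.32 on dHet and 2.69 to 2.84 on wt arrays. Among them Ccl19, a lymph node chemokine, was well above background on 4 leukemia arrays and on no pro-B array. The part of such cells in the genes above was not tested. The pro-B markers themselves gave none above and 11 (45.8%) below of 24, beside the 15.0% below of all genes. Over the 6 scalings tried, 5 to 11 of them lay below. Of 24 markers of later B cell stages none lay above and 4 (16.7%) below, near the share of all genes.

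**Figure D5:**
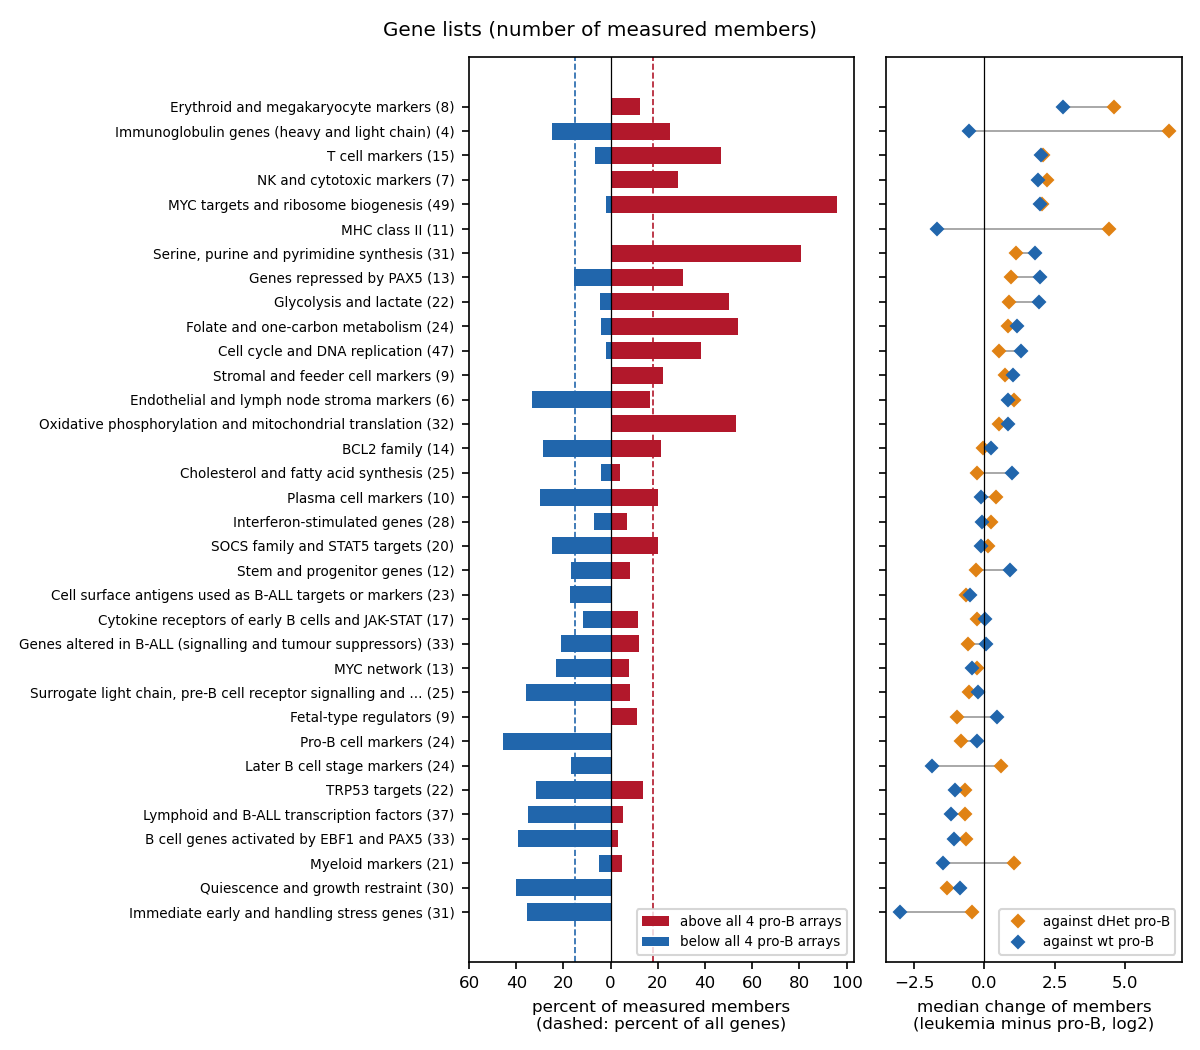
Left, percent of the measured members of each gene list above (red) or below (blue, to the left) all 4 pro-B arrays, with dashed lines at the 17.8% and 15.0% of all genes. Right, median change of the members (log2) relative to dHet and to wt pro-B cells, which lie far apart for immunoglobulin and MHC class II genes.

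With the 3 leukemia arrays of the second scan day alone, the counts above were 47 of 49 for MYC targets and 26 of 31 for serine and nucleotide synthesis. Those below were 17 of 37 for lymphoid transcription factors, 14 of 30 for quiescence and 16 of 31 for immediate early genes. Without leukemia 686 replicate 1 the same 5 counts were 47, 25, 14, 12 and 12. With slide as a random block, limma called 48 MYC targets and 24 serine and nucleotide genes higher, and 12 lymphoid transcription factors, 12 quiescence and 17 immediate early genes lower. Over the 6 scalings tried, 46 to 47 MYC targets lay above, while 6 to 15 genes activated by EBF1 and PAX5 and 8 to 14 lymphoid transcription factors lay below. Insig1 and Cd24a overlapped when arrays were scaled by their median.

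For the remaining lists the shares of all genes, 17.8% above and 15.0% below, are the background. Of 28 interferon-stimulated genes, 2 lay above and 2 below, and of 23 surface antigens of B-ALL none lay above and 4 below, among them Cd24a with a change of -1.58 ± 0.18. Of 33 other genes altered in B-ALL, 4 (12.1%) lay above and 7 (21.2%) below, among them Rb1, the retinoblastoma gene, with a change of -1.63 ± 0.17. None of 11 MHC class II genes was in order, with H2-Ab1 at 3.46, 4.19 and 5.93 in the leukemias, against -1.48 and -1.96 in dHet and 6.15 and 6.01 in wt pro-B cells. Of 12 stem and progenitor genes 1 lay above and 2 below, and of 9 fetal-type regulators 1 lay above, Igf2bp2, with a change of 2.72 ± 0.20. Across the autosomes and X the share of genes above ran from 14.7% on X to 21.5% on chromosome 11, and that of genes below from 9.40% on chromosome 15 to 18.8% on chromosome 11.

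The gaps at the edge of the rule were small. Rfc5 and Ovca2 were just inside above, and Dpy30 and Ipo8 just outside, each with a gap that rounds to 0.00. Below, Ezh1 and Pth2 were just inside and Erbb4 and Gpr146 just outside. Rfc5 read 3.73, 4.40 and 5.07 in the leukemias, with 3.73 as the higher dHet value.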

How the data were processed

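Total RNA of 6 leukemia and 4 pro-B samples was measured on one-colour Agilent mouse arrays. Per the file headers, the authors' scanner files hold spot intensity from Feature Extraction, background-subtracted and detrended within each array, with probe coordinates in mm9. Feature Extraction was version 10.5.1.1 per the file headers and 9.1 per the submitters' processing notes. The authors' deposited value table holds log2 values, normalized between arrays by a step not given in the sources used here, and its centring is unknown. It served as an alternative.

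Processed signals were divided by the 75th percentile of each array over non-control probes, and log2 was taken. Of 41174 probes, 22301 passed the filter on dim probes. It kept probes well above background on all arrays of a leukemic mouse or of a pro-B kind. A gene with no array well above background on the leukemia or pro-B side was therefore kept through the other side alone. The kept probes gave 14456 genes, each read from its brightest kept probe, and 12147 were named through RefSeq. Limma 3.58.1 (R 4.3.3) was fitted to the mean of each leukemia mouse and the 4 pro-B arrays, with Benjamini-Hochberg adjustment at 0.05, and was tested on simulated data. It left 4 residual degrees of freedom, and the number of arrays limits the precision.

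Genes were named by rule: the 12 widest gaps a direction, up to 3 genes a direction and 2 called but overlapping genes from each list, 16 chosen regulators, genes nearest the threshold, genes between the references, and those most dependent on the reference or with the largest bounds. Members and lists were chosen with earlier results of these data known. Differences between replicate 1 and replicate 2 correlated at 0.44 to 0.63 among leukemias and at -0.03 to 0.08 otherwise. Replicates of each leukemia differed in slide and scan day, while those of each pro-B group shared both. The check therefore cannot decide whether the numbers pair leukemias with pro-B samples. The result of 1 gene is not reported here.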

Additional observations from a re-analysis of the deposited data

Results flagged for a closer look

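Bhlhe40, a transcription factor gene below all pro-B arrays, had 1 leukemia array far from the others. Leukemia 760 replicate 2 read -6.30, and its distance to the nearest other leukemia array was 0.675 of the whole range of the 6 arrays, above the critical value of 0.625 for 6 samples. Only 1 of the 6 leukemia arrays was well above background for this gene, so the values compared are mostly background readings. Of 42 sets of values examined this was the only one, and chance alone marks about 1 in 20.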

How the results depend on the processing

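Scaling moved the balance of the sides. Scaling by the array median gave 3127 genes above and 1032 below (limma 5488 higher and 2381 lower). The 75th percentile over probes well above background on all arrays gave 1939 above and 3169 below (limma 3046 and 5565), against 2568 and 2174 (4123 and 4190) as reported. These scalings put the median change over the genes measured at 0.37 and -0.27, against -0.02. With only probes well above background on all arrays, 1074 genes lay below and 2045 were called lower. The second scan day alone, chosen after seeing the data, gave 3502 below. Fitting 7 samples in 2 groups called 2561 higher and 2439 lower, and slide as a random block 2407 and 1927. A gap of at least 1 left 480 above and 307 below, and a change of at least 2-fold 2108 higher and 2593 lower. Leaving out 1 array or mouse gave 2615 to 3279 above, 2251 to 2845 below, 3233 to 4465 higher and 3201 to 4570 lower. The replicate block, whose pairing the check could not decide, gave 4787 higher and 4653 lower. No gene changed side between above and below under the other scalings or in the value table.

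Genes whose change reversed were Ipo8 (-0.52), Bak1 (-0.062) and Septin8 (-0.51) with the mean of all kept probes, and Btla (-0.63) with undetected spots at the lowest level well above background. Under normexp and under the deposited table they were Ciita (-0.071 and -0.22), Stum (-0.47 and -0.53), Ms4a1 (-1.77 and -1.96) and Btla (-0.76 and -0.86). The causes were not tested.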
